A study of Mus musculus with 8 samples.

Results

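The genes described here are the collagen chains of the mouse genome, taken as the protein-coding genes whose symbol has the form Col, a number, a and a number, without Col18a1 and Col15a1. Col18a1 encodes the chain from which endostatin, the agent given here, is cut, and Col15a1 encodes its closest relative. The rule gave 42 genes of 37046 features, in 4 classes: 11 fibrillar, 6 basement membrane, 9 FACIT (fibril-associated collagens with interrupted triple helices) and 16 others. RNA was sequenced from white adipose tissue of wild-type C57BL/6J female mice, an inbred laboratory strain. The control group received PBS, the vehicle, and the endostatin group received endostatin at 50 mg/kg, both by tail vein. Tissue was taken 2 h later, during the day, and all mice were without food after the injection. Each group had 4 libraries, 2 in batch 1 (replicates 1 and 2) and 2 in batch 2 (replicates 3 and 4). The labels do not say what a batch shared, and they do not tie a library to an animal. What the p-values measure is therefore the spread between these samples, part of which may be technical. The labels name the depot as epididymal, although the mice are female.

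Collagens are proteins of the extracellular matrix made of 3 chains that wind into a triple helix. The helix needs glycine, the smallest amino acid, once in every 3 positions along the chain. Fibrillar collagens have a long helix and pack into the tensile fibres of connective tissue, and FACIT collagens sit on the surface of those fibres. Collagen IV forms the mesh of basement membranes, which in fat surround each adipocyte and each capillary. Collagen VI forms beaded filaments between the basement membrane and the fibres and is known in fat for limiting the expansion of adipocytes. Fibroblasts and their progenitors are the known main source of fibrillar collagens in adipose tissue, and adipocytes and endothelial cells make collagen IV. In bulk tissue, fewer cells of a type and less RNA per cell cannot be told apart.

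The difference between the classes can be read in their coding sequence, where every glycine codon has the form GGN. The stretches below are from the GENCODE M21 transcripts, 30 codons each, with the glycine codons of the repeat in capitals. They show an unbroken fibrillar repeat, the repeat of collagen IV at the start of its longest run and at the break that ends it, and the repeat of a FACIT and of a beaded filament chain.
Col1a1, codons 168 to 197: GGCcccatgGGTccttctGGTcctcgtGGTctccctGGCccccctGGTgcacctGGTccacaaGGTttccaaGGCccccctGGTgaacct
Col4a1, codons 43 to 72: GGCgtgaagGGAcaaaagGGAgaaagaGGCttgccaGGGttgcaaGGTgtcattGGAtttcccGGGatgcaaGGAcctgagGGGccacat
Col4a1, codons 148 to 177, with the break: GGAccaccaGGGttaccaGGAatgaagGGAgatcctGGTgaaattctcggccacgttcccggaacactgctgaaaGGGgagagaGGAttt
Col14a1, codons 1516 to 1545: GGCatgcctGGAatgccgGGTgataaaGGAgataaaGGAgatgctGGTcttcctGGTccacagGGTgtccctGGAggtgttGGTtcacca
Col6a1, codons 256 to 285: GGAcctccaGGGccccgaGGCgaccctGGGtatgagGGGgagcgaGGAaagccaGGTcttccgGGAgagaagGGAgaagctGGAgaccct
In the Col1a1 stretch a GGN codon stood once in every 3 codons, and this went on for 338 triplets. In Col4a1 the longest such run had 40 triplets, and the stretch with the break shows where the capitals stop and start again. Counting runs of at least 5 triplets, the 11 fibrillar genes had a longest run of 216 to 344 triplets and 2 or 3 runs per gene. The 6 basement membrane genes had a longest run of 39 to 66 triplets and 22 to 27 runs per gene. The longest run was 32 to 113 triplets in the FACIT class and 23 to 87 in the other class. The share of the coding sequence inside runs was lowest for Col12a1 (8.1%), Col20a1 (11.0%) and Col6a5 (11.7%), whose remaining sequence encodes other protein modules.

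The 8 libraries held 15826783 to 23786594 estimated counts each. Where a gene has no count, up to 3 counts remain possible, or 0.126 to 0.19 CPM (counts scaled to library size) depending on the library. This limit uses the total counts alone, without the normalisation between libraries (TMM) of the CPM values below. It covers counting error only. Control 3 and endostatin 4, both of batch 2, stood apart from the other libraries, with 62.6 and 41.3 on the first principal component of all genes against -28.4 to -6.53 elsewhere. Levels per transcript length are given as TPM. The summed markers of oviduct and uterus reached 617 TPM in control 3 and 431 TPM in endostatin 4, and no other library exceeded 62.9 TPM (the lowest had 30.3). All 12 of these markers were in the files and 7 had counts in every library. In endostatin 4, Ltf gave 298 TPM of the sum, and Pgr, the progesterone receptor, stood at 5.08 TPM there against 97.2 TPM in control 3. Pax8 was at 0 in 4 of the other libraries, Wnt7a in 5 and Ltf in 3. Those of skeletal muscle reached 465 TPM in control 4 and 241 TPM in control 1 and spanned 35.4 to 108 TPM over the other 6, where Pvalb was at 0 in 4. Adipocyte markers summed to 28605 TPM in control 3 and 42230 to 56032 TPM in the other 7, and all 10 had counts in every library. Log2 fold changes that moved without control 3 and endostatin 4, or without control 1 and control 4, are given beside the main value or with the processing alternatives.

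Fibrillar collagens carried most of the collagen transcripts in this tissue. Their share of the summed TPM of the 42 genes was 52.5 ± 3.6% in the control group and 54.2 ± 4.7% in the endostatin group (SD, n = 4 each). Basement membrane genes held 23.2 ± 5.8% and 23.3 ± 2.8%, the other class 21.5 ± 2.9% and 19.8 ± 3.0%, and FACIT genes 2.79 ± 0.22% and 2.58 ± 0.22%. The group means of each class thus lay within 1 SD of each other. Basement membrane and other shares overlapped across the libraries, at 15.4% to 28.5% and 15.9% to 25.7%, so their order was not fixed from library to library. In control 3 the other class, at 25.7%, exceeded the basement membrane class, at 15.4%, the lowest basement membrane share of the 8 libraries. The 42 genes together summed to 2604, 2860.2, 4247 and 2913 TPM in control 1 to 4 and 3176, 3006, 4325 and 4545 TPM in endostatin 1 to 4. The 3 highest sums were those of endostatin 4, endostatin 3 and control 3, all of batch 2, while control 4 of the same batch was among the low ones.

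**Figure D1:**
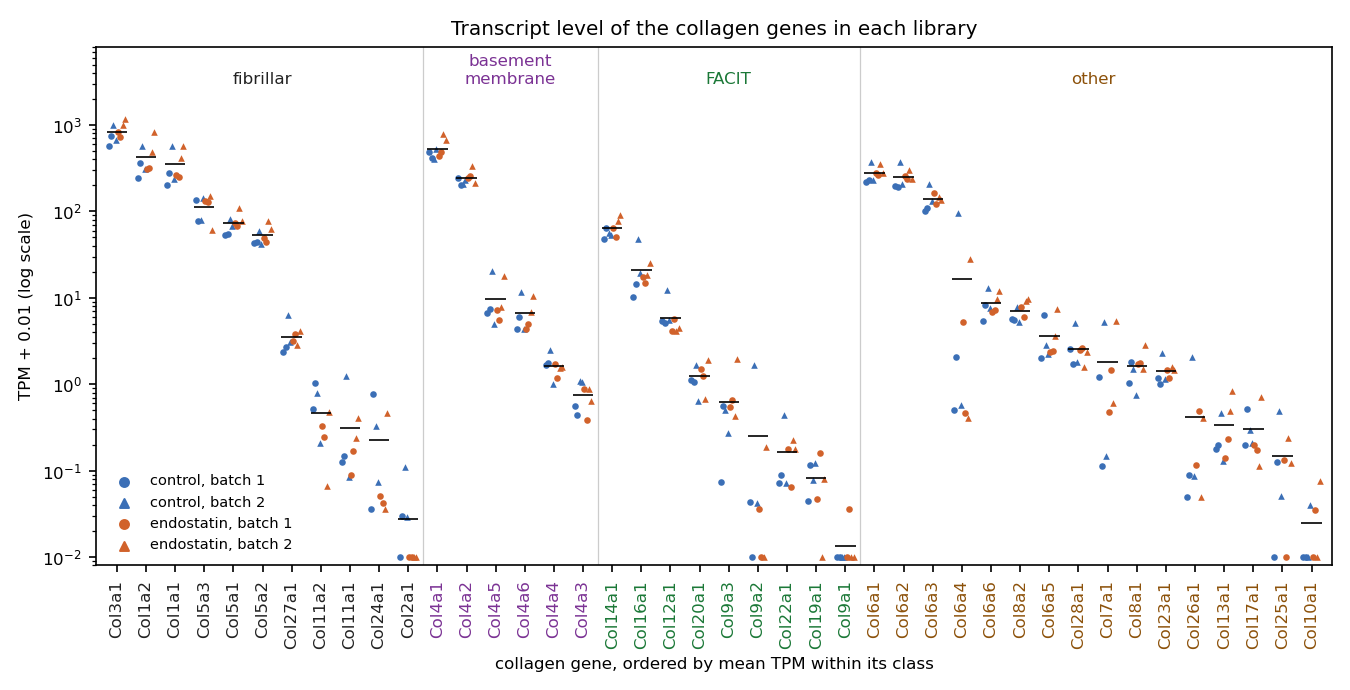
Level of each of the 42 collagen genes in the 8 libraries, as TPM plus 0.01 on a log axis, grouped by class and ordered by the mean over libraries (line). Circles are batch 1 and triangles batch 2; Col3a1 and Col4a1 lead their classes at means of 841 and 528 TPM, and Col6a4 spans the widest range among the genes above 10 TPM.

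In each class a few genes stood above the rest. Among fibrillar genes the mean over 8 libraries was 841 TPM for Col3a1, 428 TPM for Col1a2 and 351 TPM for Col1a1. Next came the collagen V chains Col5a3 (114 TPM), Col5a1 (73.0 TPM) and Col5a2 (52.8 TPM). Col1a2 and Col1a1 overlapped across libraries, as did Col5a3 and Col5a1, whereas Col27a1, a fibrillar chain of cartilage, stood far lower at 3.55 TPM. Col4a1 (528 TPM) and Col4a2 (242 TPM), the chains of the widespread collagen IV, did not overlap with each other or with the remaining collagen IV genes, which lay at 0.732 to 9.75 TPM. Col14a1 led the FACIT class at 63.6 TPM, followed by Col16a1 at 21.0 TPM and Col12a1 at 5.85 TPM. In the other class the beaded filament chains Col6a1, Col6a2 and Col6a3 stood at 277, 250.5 and 139.8 TPM.

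Of the 42 genes, 30 passed the filter on low counts and were tested: 8 of 11 fibrillar, 6 of 6 basement membrane, 4 of 9 FACIT and 12 of 16 others. The 12 that did not pass are named here. Col2a1, the main collagen of cartilage, had 6 counts over all libraries, and Col10a1, of growth plate cartilage, had 4. The collagen IX genes, whose chains join in 1 FACIT molecule of cartilage, had 1 count (Col9a1), 50.0 counts (Col9a2) and 61 counts (Col9a3). Control 3 held most of those of Col9a2, which stood at 0.0595, 0, 2.32 and 0.0548 CPM in control 1 to 4 and 0.0423, 0, 0 and 0.271 CPM in endostatin 1 to 4. Col9a3 stood at 0.119, 0.233, 0.719 and 0.384 CPM in control 1 to 4 and 0.338, 0.494, 0.321 and 0.542 CPM in endostatin 1 to 4, and Col9a1 was at 0 in 7 libraries and at 0.0449 CPM in endostatin 2. The other 7, Col11a1, Col24a1, Col19a1, Col22a1, Col13a1, Col25a1 and Col26a1, had 29.0 to 137 counts in all. Col11a1 was at 4.64 CPM in control 3 and under 1 CPM elsewhere.

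No collagen gene differed past the threshold 2 h after endostatin, and neither did any other gene (0.0% of 15184, edgeR's quasi-likelihood test with a term for batch). The lowest adjusted p of a collagen gene was 1.00. Log2 fold changes, given as endostatin minus control ± SE, were above 0 for 19 of 30 collagen genes, against 46.6% of all genes tested. Their median was 0.042, beside -0.012 over all genes. An unadjusted p under 0.05 was found for 2 collagen genes with a higher level in the endostatin group, against 2.3% of all genes, and for 0 with a lower level, against 0.896% of all genes. For no collagen gene did all 4 endostatin libraries lie above all 4 control libraries (0.942% of all genes) or below them (0.698%). The 95% interval of a collagen gene reached, at the median, 0.58 to either side on the log2 scale, beside 0.39 over all genes. Other tools gave 0 collagen genes past the threshold as well. DESeq2 called 4 of all genes and limma-voom 0, and without adjustment edgeR gave 349 genes higher and 136 lower.

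**Figure D2:**
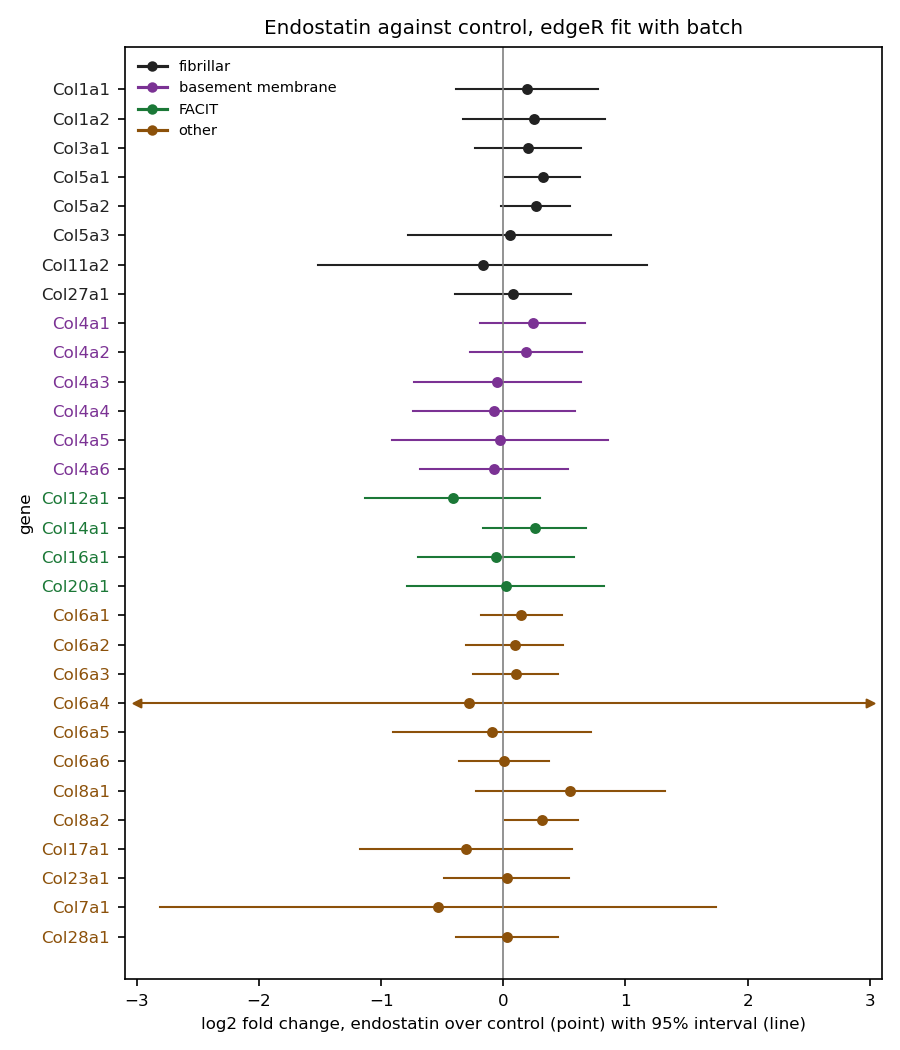
Log2 fold change of the 30 tested collagen genes, endostatin over control, from the edgeR fit with batch (point) with its 95% interval (line), coloured by class. The intervals of Col5a1 and Col8a2 lie just above 0, all others include 0, and arrows mark the interval of Col6a4, which runs beyond the axis.

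By class, the fibrillar genes had a median log2 fold change of 0.20, with 7 of 8 above 0. The basement membrane genes had -0.038, with 2 of 6 above 0, the FACIT genes -0.021, with 2 of 4, and the other class 0.029, with 8 of 12. These counts describe the members and were not tested against each other. Within batch 1 the medians were 0.047 (fibrillar), -0.0093 (basement membrane), 0.0037 (FACIT) and 0.17 (other). Within batch 2 they were 0.37, 0.12, -0.12 and -0.084 in the same order. The fibrillar median was thus higher in batch 2 than in batch 1, a difference that was not tested, and over both batches it was 0.019 without control 1 and control 4. The basement membrane and FACIT medians had no stable sign. The basement membrane median was 0.14 without control 3 and endostatin 4, 0.11 without control 3 and -0.15 without control 4. The FACIT median was 0.20 without control 3 and -0.30 without control 1 and control 4.

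Collagen I and collagen III, the main fibre formers of fat, differed more between the libraries of a group than between the group means. Col1a1 stood at 751, 1003, 1679.9 and 836 CPM in control 1 to 4 and 896, 865, 1395 and 1883 CPM in endostatin 1 to 4. Its partner chain Col1a2 stood at 674, 942, 1211 and 758 CPM in control 1 to 4 and 752, 797, 1112 and 1795 CPM in endostatin 1 to 4. Both were highest in endostatin 4, control 3 and endostatin 3, and the groups overlapped. Col3a1, whose chains form a trimer of their own, stood at 1495, 1837, 2183 and 1749 CPM in control 1 to 4 and 1756, 1519.8, 2447 and 2854 CPM in endostatin 1 to 4. The same 3 libraries were highest. The log2 fold changes were 0.19 ± 0.25 for Col1a1 (95% interval from -0.38 to 0.77), 0.25 ± 0.25 for Col1a2 and 0.20 ± 0.19 for Col3a1, none past the threshold. Without control 1 and control 4 they were -0.11, -0.016 and 0.054. Markers of fibroblasts and progenitors, of which 12 of 12 had counts in every library, had their highest sums in the same 3 libraries. They summed to 539 to 785 TPM in the control group and 590 to 996 TPM in the endostatin group. The sum was highest in endostatin 4 (996), endostatin 3 (814) and control 3 (785), with 539 to 717 TPM in the other libraries. In control 3 the members were divided. Cd34 (194 TPM), Thy1 (68.5 TPM) and Gli1 (23.5 TPM) were at their highest of the 8 libraries there, and Pdgfra, Pdgfrb and Lama2 exceeded the other control libraries. Pi16 (53.7 TPM) was at its lowest there, and Ly6a, Dpp4, Cd55, Icam1 and Fap were below control 2. The summed mesothelium markers were highest in the same 3 libraries, against 280 to 431 TPM elsewhere. They had 685 TPM in control 3, 620 TPM in endostatin 4 and 556 TPM in endostatin 3. They spanned 280 to 685 TPM over the control group and 305 to 620 TPM over the endostatin group, with 9 of 9 present in every library. In control 3, Krt19 gave 341 TPM of the sum, and no other library exceeded 175 TPM for that gene. Msln, Upk3b, Upk1b, Lrrn4, Gpm6a, Bnc1 and Muc16 were lower in control 3 than in endostatin 1, and Wt1 was higher. The part of these cell types in the result was not tested.

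The collagen V chains, which start fibrils and limit their width, included the smallest p of the fibrillar class. Col5a1 (ENSMUSG00000026837) stood at 287, 279, 343 and 346 CPM in control 1 to 4 and 355, 332, 527 and 362 CPM in endostatin 1 to 4, that is 314 ± 35.8 CPM over the control libraries and 394 ± 89.8 CPM over the endostatin libraries (SD, n = 4 each). Endostatin 3 was far above the rest, and the lowest endostatin library lay between the control libraries. The log2 fold change was 0.32 ± 0.13 (95% interval from 0.017 to 0.63; edgeR unadjusted p = 0.0408, adjusted p = 1.00), with 0.28 in batch 1 and 0.37 in batch 2. Without endostatin 3 it was 0.19 (unadjusted p = 0.136), and leaving out 1 library at a time it had an unadjusted p under 0.05 only without endostatin 4 (0.0102). Col5a2 stood at 163, 166, 185 and 161 CPM in control 1 to 4 and 175, 166, 262 and 218 CPM in endostatin 1 to 4, with a log2 fold change of 0.26 ± 0.12 (unadjusted p = 0.0619). In Col5a2, endostatin 3 and endostatin 4 lay above every control library, while endostatin 1 and endostatin 2 lay among them. Macrophage markers, 10 of 10 with counts in every library, had the same pattern: endostatin 4 (2111 TPM) and endostatin 3 (2051 TPM) were highest, and no other library exceeded 1408 TPM. They spanned 943 to 1408 TPM over the control group and 1185 to 2111 TPM over the endostatin group, and all 10 had a log2 fold change above 0. The summed fibroblast and progenitor markers were also highest in endostatin 4 (996 TPM) and endostatin 3 (814 TPM), followed by control 3 (785 TPM). The part of these cell types in the levels of Col5a2 was not tested. Col5a3, a collagen V chain of narrower distribution, stood at 521, 287, 242 and 522 CPM in control 1 to 4 and 461, 456, 522 and 202 CPM in endostatin 1 to 4. It ran the other way from Col1a1, lowest in endostatin 4 and control 3, and had a log2 fold change of 0.053 ± 0.36, which was 0.12 without control 3 and endostatin 4 and 0.63 without control 1 and control 4. Schwann cell markers, 6 of 6 present in every library, were also lowest in endostatin 4 (149 TPM) and control 3 (219 TPM). They spanned 219 to 370 TPM over the control group and 149 to 349 TPM over the endostatin group, and their part in the level of Col5a3 was not tested. The scarce chains Col27a1 (log2 fold change 0.077 ± 0.21) and Col11a2 (-0.17 ± 0.58) completed the tested fibrillar genes, and Col11a2 had at most 1.41 CPM.

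Collagen IV showed a split between its abundant and its scarce chains. Col4a1 (ENSMUSG00000031502) stood at 1289.9, 1185, 952 and 1276 CPM in control 1 to 4 and 1205, 1269, 1773 and 1339.7 CPM in endostatin 1 to 4. Col4a2 stood at 987, 791, 667 and 901 CPM in control 1 to 4 and 903, 951, 1202 and 745 CPM in endostatin 1 to 4. Both were highest in endostatin 3 and lowest in control 3, the library with the lowest adipocyte markers, and the groups overlapped. The log2 fold changes were 0.24 ± 0.19 (95% interval from -0.19 to 0.67) for Col4a1 and 0.19 ± 0.20 for Col4a2. Single libraries carried much of these: without control 3 they were 0.099 and 0.067, without endostatin 3 they were 0.10 and 0.00074, and without control 1 and control 4 they were 0.38 and 0.39. Col4a5, found in basement membranes of epithelia and smooth muscle, stood at 22.9, 29.0, 64.9 and 19.5 CPM in control 1 to 4 and 26.8, 19.8, 28.9 and 61.5 CPM in endostatin 1 to 4. Col4a6, its partner there, stood at 18.5, 22.3, 38.9 and 17.7 CPM in control 1 to 4 and 16.2, 16.9, 24.3 and 38.0 CPM in endostatin 1 to 4. These genes were at over 2 times the median of the other 6 libraries in control 3 and endostatin 4, with ratios of 2.61 and 2.48 for Col4a5 and 2.15 and 2.1 for Col4a6. In the same libraries the markers of oviduct and uterus were highest, and so was the summed list of pericytes and smooth muscle, at 1658 TPM (control 3) and 2501 TPM (endostatin 4), where the other libraries had 924 to 1304 TPM. All 10 genes of that list had counts in every library, with sums of 924 to 1658 TPM over the control group and 1014 to 2501 TPM over the endostatin group. In endostatin 4 the sum came mostly from the contractile genes Tagln (1243 TPM), Acta2 (599 TPM) and Myh11 (230.2 TPM). The pericyte genes Rgs5 (48.0 TPM) and Cspg4 (10.2 TPM) were at their lowest of the 8 libraries there. Notch3 (20.8 TPM), Kcnj8 (10.8 TPM) and Abcc9 (20.6 TPM) lay within the range of the other libraries. The part of these cells in the levels was not tested. The log2 fold changes were -0.027 ± 0.38 for Col4a5 and -0.078 ± 0.26 for Col4a6. They were 0.080 and -0.049 without control 3 and endostatin 4, and -0.42 and -0.37 without control 1 and control 4. Col4a3 and Col4a4, which join with Col4a5 in the collagen IV of kidney filters and lung, stood at 2.98, 2.27, 4.42 and 3.95 CPM in control 1 to 4 and 4.14, 1.89, 3.85 and 2.98 CPM in endostatin 1 to 4 and at 9.11, 7.23, 12.9 and 5.65 CPM in control 1 to 4 and 10.2, 5.93, 8.97 and 7.96 CPM in endostatin 1 to 4. They had log2 fold changes of -0.049 ± 0.30 and -0.076 ± 0.29, with groups that overlapped over most of their range.

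Among FACIT collagens, Col14a1, which coats fibrils of collagen I, stood at 158, 202, 146 and 166 CPM in control 1 to 4 and 188, 147, 224 and 256 CPM in endostatin 1 to 4. Its log2 fold change was 0.26 ± 0.18 (95% interval from -0.16 to 0.68), with -0.11 in batch 1 and 0.62 in batch 2. In batch 2 both endostatin libraries lay above both control libraries, and in batch 1 they were interleaved. The log2 fold change of Col14a1 was 0.069 without control 3 and endostatin 4 and 0.40 without control 2 (edgeR unadjusted p = 0.0450). The summed macrophage markers and the summed fibroblast and progenitor markers, too, were highest in endostatin 4 and endostatin 3. The part of these cell types in the level of Col14a1 was not tested. Col12a1, a FACIT of tendon, ligament and stretched tissue, stood at 30.0045, 26.0, 66.0 and 24.0 CPM in control 1 to 4 and 25.3, 29.8, 24.6 and 26.9 CPM in endostatin 1 to 4. One library, control 3, stood apart at 2.57 times the median of the other 6, and the remaining 7 lay between 24.0 and 30.0045 CPM. The log2 fold change was -0.41 ± 0.31, the smallest p among collagen genes with a lower level (edgeR unadjusted p = 0.217). It was 0.011 without control 3 and -0.70 without control 1 and control 4. With transcript length offsets it was -0.61 (edgeR unadjusted p = 0.0419). Col16a1 stood at 27.1, 28.9, 80.7 and 32.9 CPM in control 1 to 4 and 34.0, 27.5, 38.1 and 57.0 CPM in endostatin 1 to 4, with a log2 fold change of -0.062 ± 0.28. It was highest in control 3 and endostatin 4 and had 0.16 without these and -0.36 without control 1 and control 4. For Col16a1 transcripts annotated as protein-coding held 46.5% of the counts, and the rest fell on models of other types. Col20a1 stood at 2.56, 2.80, 3.70 and 1.70 CPM in control 1 to 4 and 2.24, 3.24, 1.71 and 3.74 CPM in endostatin 1 to 4, with 0.021 ± 0.35 and no separation of the groups.

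Of the beaded filament chains of collagen VI, Col6a1 and Col6a2 were close in level, and Col6a3 was lower in TPM in every library. Col6a1 (ENSMUSG00000001119) stood at 554, 555, 749 and 554 CPM in control 1 to 4 and 636, 619, 798 and 618 CPM in endostatin 1 to 4. Col6a2 stood at 494, 459, 747 and 498 CPM in control 1 to 4 and 582, 549, 678 and 513 CPM in endostatin 1 to 4. Col6a3, the long chain from which the adipose fragment endotrophin is cut, stood at 405, 448, 645 and 545 CPM in control 1 to 4 and 601, 465, 565 and 529 CPM in endostatin 1 to 4. In Col6a1, 3 control libraries lay within 1 CPM of each other and control 3 stood above them, as endostatin 3 did in its group. The log2 fold changes were 0.15 ± 0.14, 0.092 ± 0.17 and 0.10 ± 0.15 in the same order, with unadjusted p of 0.331, 0.606 and 0.524 in edgeR. Without control 3 and endostatin 4 they were 0.29, 0.31 and 0.23, and the unadjusted p of Col6a1 and Col6a2 were 0.0322 and 0.0162. Without control 1 and control 4 they were 0.049, -0.022 and 0.0026.

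The chains that can take the place of Col6a3 behaved otherwise. Col6a4 (ENSMUSG00000032572) stood at 1.13, 5.77, 318 and 2.52 CPM in control 1 to 4 and 19.2, 0.674, 0.534 and 97.9 CPM in endostatin 1 to 4. Control 3 was 174 times and endostatin 4 53.6 times the median of the other 6 libraries, and among those endostatin 1, next in the oviduct and uterus markers (62.9 TPM), was highest. The order of the top 3 libraries in Col6a4 was thus the order of those markers. The fitted log2 fold change of -0.28 ± 1.84 had an interval from -4.53 to 3.98 and gave no direction: it was 2.50 without control 3 and -1.85 without endostatin 1. Col6a5 stood at 12.0, 23.6, 13.5 and 12.8 CPM in control 1 to 4 and 9.43, 10.1, 19.2 and 23.1 CPM in endostatin 1 to 4, with -0.090 ± 0.35. It was highest in control 2 and endostatin 4. Col6a6 stood at 30.3, 43.9, 53.9 and 38.4 CPM in control 1 to 4 and 31.8, 36.3, 47.8 and 53.8 CPM in endostatin 1 to 4, with 0.0075 ± 0.16 and the groups overlapping throughout.

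**Figure D3:**
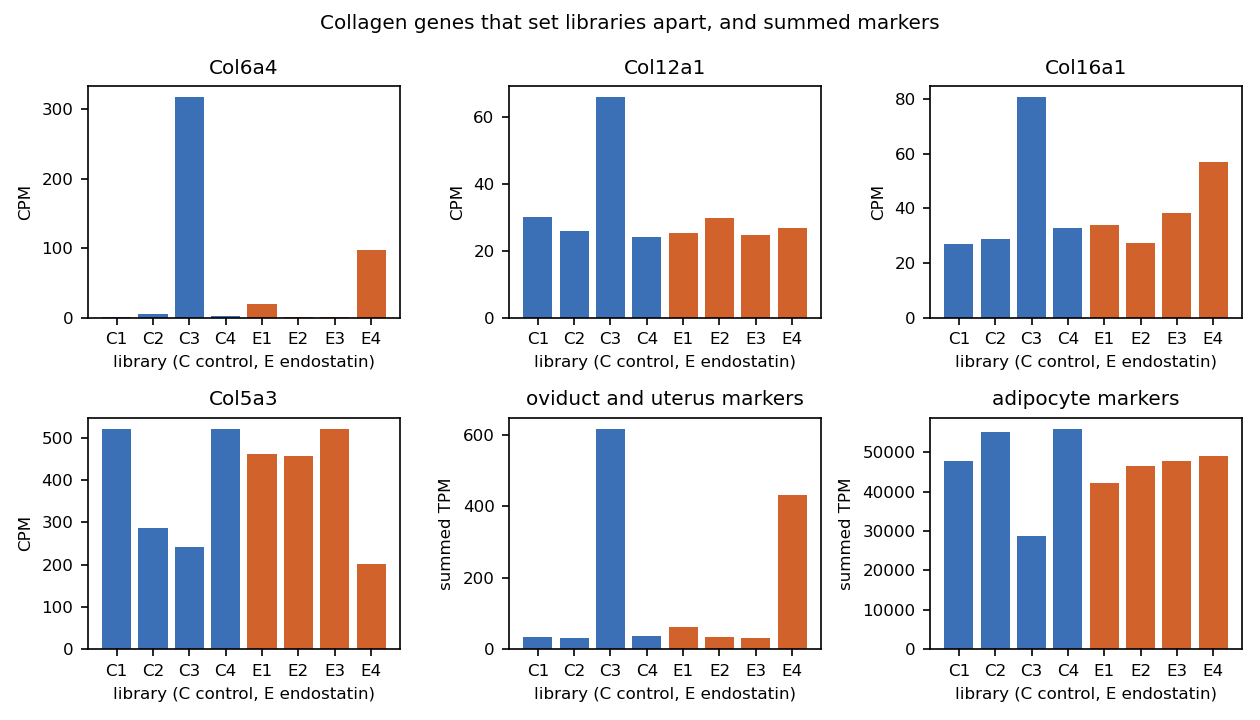
CPM of Col6a4, Col12a1, Col16a1 and Col5a3 in each library, with the summed TPM of oviduct and uterus markers and of adipocyte markers, control in blue and endostatin in orange. Control 3 stands apart in every panel but that of Col5a3, where endostatin 4 (202 CPM) is lower still, and Col6a4 and the oviduct and uterus sum share their order of the 3 highest libraries.

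Collagen VIII, a short-chain collagen of vessel walls and of the cornea, had the other unadjusted p under 0.05. Col8a2 (ENSMUSG00000056174) stood at 15.4, 14.2, 16.6 and 13.5 CPM in control 1 to 4 and 19.0, 14.9, 19.4 and 21.1 CPM in endostatin 1 to 4, that is 14.9 ± 1.38 CPM over the control libraries and 18.6 ± 2.62 CPM over the endostatin libraries (SD, n = 4 each). Of the endostatin libraries, 3 lay above every control library and endostatin 2 lay among them. The log2 fold change was 0.31 ± 0.13 (95% interval from 0.014 to 0.61; edgeR unadjusted p = 0.0422, adjusted p = 1.00), with 0.20 in batch 1 and 0.43 in batch 2. It was 0.30 without control 3 and endostatin 4 and 0.27 without control 1 and control 4, with unadjusted p of 0.0622 and 0.121. Its partner Col8a1 stood at 3.21, 5.25, 3.65 and 2.19 CPM in control 1 to 4 and 4.48, 4.90, 3.74 and 7.58 CPM in endostatin 1 to 4, with 0.55 ± 0.33 and a wider spread. Leaving out single libraries, Col8a2 kept an unadjusted p under 0.05 without control 1, control 3 or endostatin 2 and lost it without any of the other 5.

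Col7a1, which forms the anchoring fibrils under stratified and mucosal epithelia, stood at 1.13, 0.583, 13.5 and 0.767 CPM in control 1 to 4 and 1.73, 1.53, 0.962 and 3.03 CPM in endostatin 1 to 4. Control 3 alone exceeded 3.03 CPM. In TPM, however, endostatin 4 (5.35) and control 3 (5.23) were both high, and no other library exceeded 1.47. The log2 fold change was -0.54 ± 0.98 and turned to 1.08 without control 3. Col17a1, a membrane collagen that fastens basal epithelial cells, stood at 0.655, 0.467, 0.774 and 0.658 CPM in control 1 to 4 and 0.592, 0.539, 0.321 and 0.596 CPM in endostatin 1 to 4. All its values were under 1 CPM, and the log2 fold change of -0.31 ± 0.37 rested on 88 counts in all. The remaining tested genes, the membrane collagen Col23a1 and the nerve-associated Col28a1, had 0.027 ± 0.22 and 0.031 ± 0.18, with at most 6.47 CPM.

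Chains that join in 1 trimer were compared by the ratio of their TPM in each library. Col1a1 over Col1a2 was 0.832, 0.783, 1.00 and 0.755 in control 1 to 4 and 0.870, 0.792, 0.851 and 0.703 in endostatin 1 to 4. Col4a1 over Col4a2 was 1.95, 2.05, 1.96 and 2.27 in control 1 to 4 and 1.80, 1.90, 2.38 and 3.14 in endostatin 1 to 4. Both genes of collagen IV rise from 1 locus on opposite strands, and in the RefSeq table (GRCm38.p6) their starts lay 21 bases apart. The ratio of collagen IV was widest in endostatin 4, and the groups overlapped in both ratios. Col6a1 over Col6a2 stayed within 0.998 to 1.19 and Col6a1 over Col6a3 within 1.69 to 2.39. Col3a1 over Col1a1, which compares the fine with the coarse fibre formers, was 2.86, 2.68, 1.72 and 2.83 in control 1 to 4 and 3.14, 2.91, 2.40 and 2.02 in endostatin 1 to 4, lowest in control 3 and endostatin 4.

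**Figure D4:**
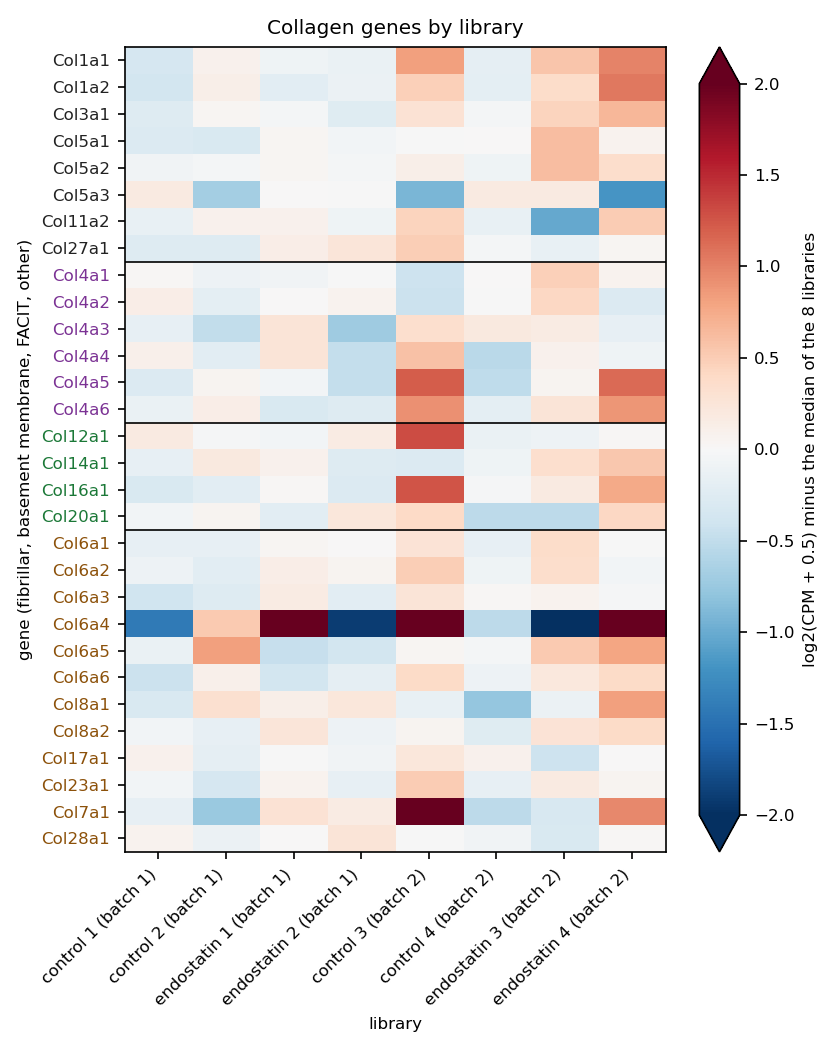
Each tested collagen gene in each library as log2(CPM + 0.5) minus the median of the 8 libraries, libraries ordered by batch and genes by class, with the colour scale ending at 2 in either direction. The deepest colours are those of Col6a4, red in control 3, endostatin 4 and endostatin 1 and blue in endostatin 2 and endostatin 3, and of Col7a1, red in control 3. Paler red marks Col4a5 and Col12a1 in control 3 and Col1a2 in endostatin 4, and Col5a3 is a paler blue in control 3 and endostatin 4.

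The single library that was highest for a gene was often the same one. Control 3 was highest for 14 of 30 tested collagen genes, endostatin 4 for 8 and endostatin 3 for 6, all in batch 2. Control 2 and endostatin 2 were highest for 1 each, and the remaining 3 libraries for none. Of the fibrillar genes, 4 of 8 peaked in endostatin 4 and 3 in endostatin 3. The highest library was not counted over all genes, where control 3 and endostatin 4 also stood apart on the first principal component. These counts therefore do not set the collagen genes apart from other genes. Without control 3 and endostatin 4, the log2 fold change was above 0 for 25 of 30 collagen genes, beside 50.8% of all genes, with a median of 0.16. There, 3 had an unadjusted p under 0.05 with a higher level (Col5a1, Col6a1 and Col6a2; 3.13% of all genes), and the lowest adjusted p was 0.579. Without control 1 and control 4, 12 of 30 were above 0, beside 50.0% of all genes, with a median of -0.045 and 0 with an unadjusted p under 0.05. Among genes not given both ways above, Col27a1 had 0.27, Col6a5 -0.39, Col11a2 -0.50 and Col8a1 0.34 without control 3 and endostatin 4. Col6a5 had -0.41, Col7a1 -1.25, Col11a2 -0.46 and Col8a1 0.22 without control 1 and control 4. The balance of higher and lower collagen genes thus depended on which libraries were kept.

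Within the batches the endostatin effect had the same sign for 10 of 30 collagen genes and for 7249 of 15184 genes overall. The test of the difference between batches called 0 collagen genes (0.0% of all genes), with an unadjusted p under 0.05 for 3 of 30, against 3.47% of all genes. Col6a5 had -0.87 in batch 1 and 0.68 in batch 2, a difference of 1.55 ± 0.43 (unadjusted p = 0.00924). Col14a1 had a difference of 0.73 ± 0.27 (unadjusted p = 0.0315). Col27a1, which stood at 8.87, 8.87, 15.3 and 10.4 CPM in control 1 to 4 and 11.8, 12.8, 9.56 and 11.0 CPM in endostatin 1 to 4, had 0.47 in batch 1 and -0.31 in batch 2, a difference of -0.78 ± 0.32 (unadjusted p = 0.0441). The adjusted p of all 3 was 0.997 in edgeR's test, and DESeq2 called 26 of all genes, with 0 collagen genes among them. Col6a4 and Col7a1 had the widest contrast, with 1.53 in batch 1 and -1.70 in batch 2 for Col6a4 and 0.92 in batch 1 and -1.84 in batch 2 for Col7a1, and differences of -3.23 ± 3.44 and -2.76 ± 1.67.

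**Figure D5:**
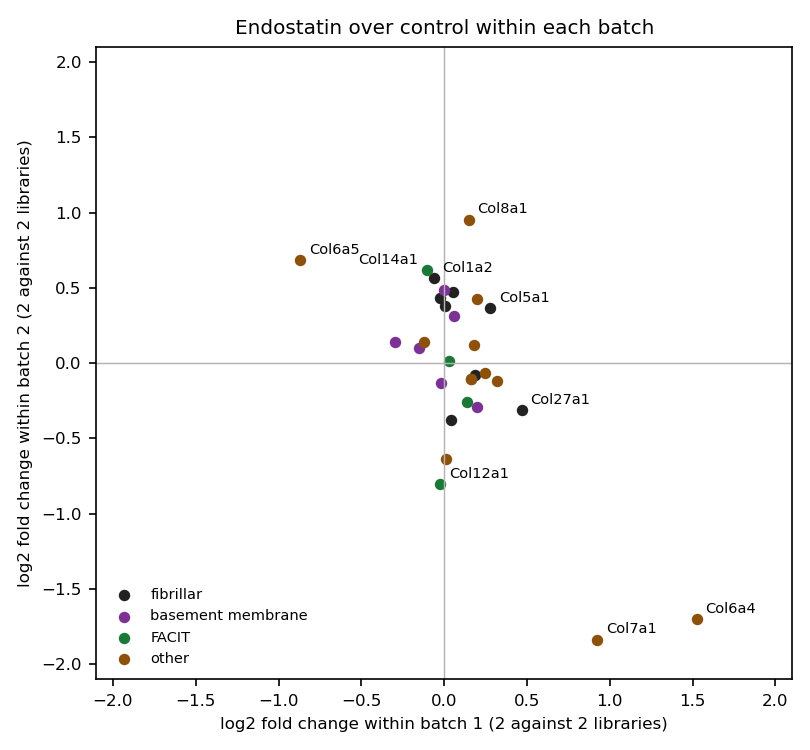
Log2 fold change of endostatin over control within batch 1 (horizontal) and within batch 2 (vertical) for the 30 tested collagen genes, each from 2 against 2 libraries, coloured by class with 9 genes named. Points in the upper right and lower left areas have the same sign in both batches (10 of 30, beside 7249 of 15184 of all genes), and Col6a4 and Col7a1 lie far to the lower right.

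Between the batches, the collagen genes leaned to one side. In the same fit, 26 of 30 had a higher level in batch 2, against 52.1% of all genes, with a median log2 difference of 0.27 beside 0.012 over all genes. None passed the threshold (0.0395% of all genes did, which is 6 genes), and the lowest adjusted p was 0.494. DESeq2 called 171 of all genes and limma-voom 10, with 0 collagen genes among them. An unadjusted p under 0.05 was found for 8 of 30 with a higher level (5.42% of all genes) and for 0 with a lower level (4.54% of all genes). Col16a1 had the smallest p, with 0.82 ± 0.28 (unadjusted p = 0.0182), followed by Col1a1 with 0.71 ± 0.25 (0.0227) and Col6a6 with 0.45 ± 0.16 (0.0239). Without control 3 and endostatin 4 these were 0.28, 0.32 and 0.29, and 19 of 30 genes were above 0, beside 50.7% of all genes. There, 2 had an unadjusted p under 0.05 with a higher level (6.48% of all genes) and 0 with a lower level. The number with an unadjusted p under 0.05 was 0 without control 1, 1 without endostatin 2, 1 without endostatin 4, 3 without control 3 and 4 without endostatin 1. It was 7 without control 2, 8 without control 4 and 7 without endostatin 3, against 8 in the main fit. The share over all genes is not given for these fits.

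Genes that build, move and bind collagen were read from lists by role. None passed the threshold in edgeR's test. Of 17 genes for folding and modifying the chains, 14 had a higher level in the endostatin group, with a median log2 fold change of 0.068, beside 46.6% and -0.012 over all genes. P4hb, a subunit of the enzyme that hydroxylates proline, stood at 310.3, 282, 337 and 333 CPM in control 1 to 4 and 317, 319, 393 and 358 CPM in endostatin 1 to 4, with 0.14 ± 0.092, and P3h4, a partner of lysyl hydroxylation in the endoplasmic reticulum, had 0.21 ± 0.15. On the lower side P4ha2, a catalytic subunit of prolyl hydroxylase, had -0.12 ± 0.19 and Plod2, a lysyl hydroxylase, had -0.12 ± 0.25.

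Of 12 tested genes for export and removal of propeptides, 11 were higher, beside 46.6% of all genes, with a median of 0.15. Both unadjusted p under 0.05 of the lists fell here, with a higher level, against 2.3% of all genes. Adamts2, the protease that removes the amino-terminal propeptide of collagens I and III, stood at 134, 164, 127 and 155 CPM in control 1 to 4 and 173, 156, 216 and 239 CPM in endostatin 1 to 4. Its log2 fold change was 0.42 ± 0.15 (edgeR unadjusted p = 0.0223, adjusted p = 1.00), and 3 of 4 endostatin libraries lay above every control library. Pcolce2, an enhancer of the protease for the carboxy-terminal propeptide, stood at 27.3, 38.0, 19.9 and 27.4 CPM in control 1 to 4 and 35.8, 32.6, 50.3 and 50.4 CPM in endostatin 1 to 4. Its log2 fold change was 0.58 ± 0.23 (unadjusted p = 0.0387), with endostatin 3 and endostatin 4 above every control library. These are the libraries with the highest summed macrophage markers and the highest summed fibroblast and progenitor markers. Adamts2, too, was highest in endostatin 4 and endostatin 3. The part of these cell types in the levels of Adamts2 and Pcolce2 was not tested. Mia2, a receptor that loads collagen into transport carriers, had -0.061 ± 0.095, the sole negative value.

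Of 9 tested collagen receptors, 6 were higher, beside 46.6% of all genes, with a median of 0.15. Ddr2, the receptor tyrosine kinase of fibroblasts for fibrillar collagen, stood at 244, 319, 235 and 215 CPM in control 1 to 4 and 295, 285, 324 and 378 CPM in endostatin 1 to 4, with 0.34 ± 0.16. Ddr2 was also highest in endostatin 4 and endostatin 3, and the part of macrophages, fibroblasts and progenitors in its level was not tested. Mrc2, which takes up collagen for breakdown, had 0.19 ± 0.13, the chondrocyte integrin chain Itga10 -0.16 ± 0.25 and the epithelial Ddr1 -0.062 ± 0.14. All 11 tested proteoglycans and regulators of fibrils were above 0, with a median of 0.23, but the median was -0.070 within batch 1 and 0.53 within batch 2. Tnxb, which spaces collagen fibrils, had 0.58 ± 0.33 and Sparc, a collagen chaperone of the matrix, 0.34 ± 0.22. Of 16 partners of collagen IV in the basement membrane, 11 were higher, with a median of 0.12. The laminin chains Lama4, of vessels and adipocytes, and Lama2 had 0.23 ± 0.13 and 0.25 ± 0.15, Agrn had -0.18 ± 0.23, and Lama1, near the filter at 0 to 2.65 CPM, had -1.15 ± 0.88. Tll2, Gp6 and Kera were not tested.

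The start regions of the genes were read from the RefSeq table (GRCm38.p6), which held 35 windows for 33 of the 42 genes, each from 250 bases before to 50 bases after the start. Each motif was searched on both strands. The GC box GGGCGG was in 62.9% of these windows and in 35.7% of all 32851 windows. The CCAAT box CCAAT was in 34.3% and 37.4%, and the TATA box TATAAA in 14.3% and 13.6%. None of these motifs contains another. Col1a2 is shown because it moved with Col1a1 and Col3a1 across the libraries and because its CCAAT box is a known element of its promoter. The 150 bases before its start, chr6:4505468-4505617 on the plus strand, have the CCAAT box in capitals.
Col1a2: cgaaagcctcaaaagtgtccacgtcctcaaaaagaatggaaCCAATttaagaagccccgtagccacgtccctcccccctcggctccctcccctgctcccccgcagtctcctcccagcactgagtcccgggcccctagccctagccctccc
The capitals begin at base 42 of the run. A match to a motif describes the sequence and shows no binding.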

How the data were processed

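The authors deposited 1 file per library with an estimated count for each transcript, made with Salmon on the GRCm39 build per the submitters' processing notes. Its version is not given in the sources used here. Each deposited file also holds TPM, which the authors' run of Salmon scaled to transcript length and library. Libraries were strand-specific and depleted of ribosomal RNA, per the labels' protocols. Each file lists 115620 transcripts, of which 98.35% matched GENCODE M21 identifiers without version. M21 was used for gene names, types and coding sequences, and 1910 unmatched transcripts were kept as features. For each gene the estimated counts of its transcripts were added and rounded. Salmon divides reads that transcripts share, so overlapping genes are uncertain.

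Genes were filtered with filterByExpr, scaled by TMM and fitted with edgeR 4.0.16 (R 4.3.3) by the quasi-likelihood test with batch and treatment, or with their interaction. All p-values are two-sided and adjusted over 15184 genes (Benjamini-Hochberg, threshold 0.05). CPM values are TMM-normalised. No set test was run. DESeq2 1.42.0, limma-voom (limma 3.58.1), other size factors, filters, length offsets, protein-coding genes alone, no batch term, a replicate block and libraries left out were alternatives.

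The members, classes and lists were chosen with earlier results of these data known. Values in every library are given for the 4 genes of each class with the highest mean TPM, the 3 genes per direction with the smallest p after endostatin, the 3 with the smallest p for batch and for interaction, and partner chains of 1 trimer. From each pathway list up to 2 genes per direction with the smallest p are named. Other members appear where a count or range needs them. The description of endostatin 4 repeats the read file name of endostatin 3; their counts differ, and the labels were kept.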

Additional observations from a re-analysis of the deposited data

Results flagged for a closer look

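In 82 comparisons of a library with the others of its group (30 collagen genes and 11 chain ratios in 2 groups), 11 values stood apart by Dixon's criterion for 4 samples, a gap to the next library that fills most of the group's range. Chance gives about 1 in 20 such groups. Of the 11, 7 were in control 3: Col12a1 at 66.0 CPM (24.0 to 30.0045 in the other control libraries), Col16a1 at 80.7 CPM (27.1 to 32.9), Col6a1 at 749 CPM (554 to 555), Col6a2 at 747 CPM (459 to 498), Col6a4 at 318 CPM (1.13 to 5.77), Col7a1 at 13.5 CPM (0.583 to 1.13) and the TPM ratio of Col3a1 over Col1a1 at 1.72 (2.68 to 2.86). In endostatin 3, Col5a1 stood at 527 CPM (332 to 362 in the other endostatin libraries) and Col6a1 at 798 CPM (618 to 636). Col6a5 stood at 23.6 CPM in control 2 (12.0 to 13.5 in the others). The TPM ratio of Col4a5 over Col4a4 was 11.4 in endostatin 4 (4.17 to 5.06). Control 3 is also the library with the highest oviduct and uterus markers, whose part in these values was not tested.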

How the results depend on the processing

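No alternative brought a collagen gene past the threshold in the endostatin, batch or interaction comparison. The smallest adjusted p of a named gene was 0.579. Over all genes, DESeq2 called 4 in the endostatin comparison, 26 in the interaction and 171 between batches. Between batches the number was 11 with no low-count filter, 10 with limma-voom, 3 with protein-coding genes alone, 27 without control 3 and endostatin 4, and 0 to 18 leaving out 1 library at a time. Collagen genes with an unadjusted p under 0.05 after endostatin numbered 3 with DESeq2 and 3 with transcript length offsets, against 2 in the main fit. They numbered 1 with no batch term, 0 without control 1 and control 4, and 0 to 1 leaving out 1 library. Between batches they numbered 5 with limma-voom, 2 without control 3 and endostatin 4, and 0 to 8 leaving out 1 library. Without control 1 and control 4, 12 collagen genes had a log2 fold change above 0. The median of the other class was 0.26 without control 3 and endostatin 4. The cause of these shifts was not tested.

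Of 539 log2 fold changes of the 27 tested named genes under 20 alternatives, 58 had the other sign, in 17 genes, and 10 genes kept theirs throughout. Without control 3 and endostatin 4 the values of the other sign were 0.16 (Col16a1), 0.12 (Col4a3), 0.20 (Col4a4), 0.080 (Col4a5), 0.62 (Col6a4) and 0.73 (Col7a1). Without control 1 and control 4 they were -0.11 (Col1a1), -0.016 (Col1a2), -0.24 (Col20a1), -0.077 (Col27a1), -0.022 (Col6a2) and -0.23 (Col6a6). With transcript length offsets they were -0.0065 (Col27a1), 0.13 (Col6a5) and 0.40 (Col7a1). Col4a5 had 0.058 with limma-voom and 0.0056 with no batch term.

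Leaving out 1 library at a time, the range was -0.58 to 0.011 for Col12a1, -0.24 to 0.28 for Col16a1, -0.010 to 0.36 for Col1a1, -0.24 to 0.26 for Col20a1, -0.015 to 0.26 for Col27a1, 0.099 to 0.31 for Col4a1, 0.00074 to 0.28 for Col4a2, -0.36 to 0.099 for Col4a3, -0.26 to 0.20 for Col4a4, -0.31 to 0.34 for Col4a5, -0.31 to 0.12 for Col4a6, -0.24 to 0.34 for Col5a3, -0.021 to 0.18 for Col6a3, -1.85 to 2.50 for Col6a4, -0.30 to 0.28 for Col6a5, -0.11 to 0.15 for Col6a6 and -1.03 to 1.08 for Col7a1.

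Deviations of same-numbered libraries from their group mean correlated at 0.24, 0.14, -0.14 and -0.33. Between libraries of different numbers the values ran from -0.42 (control 3 with endostatin 2) to 0.41 (control 3 with endostatin 4). Batch was not removed, and the labels do not tie a library to an animal. These values therefore cannot settle whether the replicate numbers pair the libraries. With a replicate block, 0 collagen genes had an unadjusted p under 0.05, against 2 without it, and the values of the other sign were 0.020 (Col4a5), 0.40 (Col6a4) and 0.26 (Col7a1). Genes near 1 CPM, such as Col17a1 and Col11a2, are limited by depth.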
